A study of Mus musculus with 3 samples.

Results

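Genes of the cholesterol pathway took a larger share of the transcripts in cells of the VE lineage than in cells of the Epi lineage, and most of the biosynthetic enzymes with enough counts varied together from cell to cell in the 4 main groups of cells. The genes described are 26 members of cholesterol synthesis, transport and sterol control out of the 32285 genes counted. They were listed by function, but the list was drawn up with earlier results of these data known. Counts and medians set beside all tested genes are therefore descriptions. The list comprises 7 enzymes of the mevalonate pathway, 11 enzymes of the sterol branch, 5 genes of sterol control and 3 of intracellular transport and efflux. All 26 had a mean of at least 5 counts per 1000000 (CPM) over the 4 main groups of cells, a level that 9657 of all genes (29.9%) reached. Abca1 did so only through the group in which it was highest. A level in CPM is the count of unique molecular identifiers (UMIs) of a gene, divided by the UMI total of that group and scaled to 1000000.

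Transcripts were counted in single cells of 3 kinds of aggregate, with 1 10x Genomics 3′ library for each, all from mouse embryonic stem cells of strain E14tg2a that carry an inducible GATA4 transgene. Bilayered embryo-like aggregates (BELAs) hold an inner Epi layer and an outer VE layer, which model the epiblast and the visceral endoderm of the embryo around implantation. They came from cells of the inducible clone given 0.5 µg/ml doxycycline in 2i and LIF for 8 h, held in N2B27 for 16 h and grown for 3 days after seeding on gelatin. For VE cysts the same clone stayed in doxycycline for those 16 h, and the medium then and during the 3 days that followed held FGF4 (10 ng/ml) as well as heparin (1 µg/ml), and picking avoided structures with a visible core of Epi-like cells. Epi cysts came from cells of the inducible line plated in drops of matrigel, kept for 1 day in 2i with LIF, then for 3 days in N2B27, and no doxycycline is named for them.

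The filter asked for 4000 or more detected genes and no more than 10% of UMIs from mitochondrial genes, which 1410 of 2220 barcodes passed in BELAs, 657 of 1076 in Epi cysts and 625 of 881 in VE cysts. A cell was counted as VE where the UMIs of Gata6, Sox17, Dab2 and Cubn together exceeded those of Pou5f1, Sox2, Nanog and Fgf4, and otherwise as Epi. This gave 542 VE and 868 Epi cells in BELAs (38.4% VE, exact 95% binomial interval 35.9 to 41.0%), 577 VE and 48 Epi cells in VE cysts, and 656 Epi cells and 1 VE cell in Epi cysts. The 4 main groups are named BELA VE, BELA Epi, VE cyst VE and Epi cyst Epi. Their median depth was 90251, 78973, 56914 and 60131 UMIs per cell, and 3 UMIs in a whole group, the limit that a count of 0 allows, corresponded to 0.0416 to 0.0845 CPM. The VE markers stood at 0.816% of their BELA VE level in BELA Epi cells, and the Epi markers at 6.68% of their BELA Epi level in BELA VE cells. Summed markers of neural cells, trophoblast, blood and endothelium, and fibroblasts did not pass 40.7 CPM in any main group. Parietal endoderm markers (Sparc, Col4a1, Lama1 and Plat) summed to 7264 CPM in BELA VE, 18368 CPM in VE cyst VE, 134 CPM in BELA Epi and 78.7 CPM in Epi cyst Epi cells. The libraries shared at most 2 barcodes, none of which passed the filter in both libraries of a pair. Each kind of aggregate has 1 library and cells of a library are no replicates, so no difference was tested or has a replicate check. The bounds in parentheses are 95% intervals, exact Poisson for a level and exact conditional for a ratio, and cover counting error only.

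Cholesterol is built from acetyl-CoA in the cytosol and the endoplasmic reticulum. The mevalonate pathway makes isoprenoid diphosphates, from which squalene synthase opens the sterol branch that runs through squalene epoxide and lanosterol to cholesterol. SREBP transcription factors are held in the endoplasmic reticulum by the escort protein SCAP and the INSIG proteins while sterols are plentiful, and are cut free and enter the nucleus when sterols run low. There they bind sterol regulatory elements (SRE), together with NF-Y at CCAAT boxes and SP1 at GC boxes, in promoters of most enzymes of the pathway. In the embryo the visceral endoderm is known for its uptake of nutrients and for the lipoproteins it secretes.

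Promoter windows from 250 bases before to 50 bases after each annotated start (RefSeq, GRCm38.p6) were at hand for 21 of the 26 genes, in 29 windows. The exceptions were Fdps, Fdft1, Sqle, Stard4 and Npc1. All windows were searched on both strands for 5 strings of letters. A core SRE, TCACNCCAC, lay in 1 of the 21 genes (4.76%), Hmgcs1, against 1.44% of all 27025 genes with a window. A relaxed SRE, TCACNNCAC, which contains the core, lay in 4 of 21 (19.0%), namely Hmgcs1, Msmo1, Hsd17b7 and Dhcr7, against 4.37% of all genes and 4.22% of the tested genes with a window. An E-box, CACGTG, lay in 6 (28.6%, against 8.09% of all and 12.8% of tested genes), a CCAAT box, CCAAT, in 18 (85.7%, against 41.1% of all and 44.0% of tested genes), and a GC box, GGGCGG, in 20 (95.2%, against 38.2% and 73.0%). A gene counted where any of its windows matched. By window the shares were 3.45% of member windows against 1.24% of all windows for the core SRE, and 13.8% against 3.77% for the relaxed SRE. They were 24.1% against 7.15% for the E-box, 65.5% against 37.4% for the CCAAT box and 82.8% against 35.7% for the GC box. A match is a description of letters in a window, and neither a site nor a cause. The stretches around the relaxed SRE matches follow, because they are the members that carry it, with the match in capitals and 40 bases on either side, read 5′ to 3′ on the strand of the gene. They lie at chr13:119690174-119690262 (plus strand) for Hmgcs1, chr8:64733622-64733710 (minus) for Msmo1, chr1:169969274-169969362 (minus) for Hsd17b7 and chr7:143823229-143823317 (plus) for Dhcr7. All are ahead of the RefSeq start of their window. In GENCODE M21 Msmo1 begins at 64733792 and Dhcr7 at 143823145, so by that annotation their stretches lie inside the gene.
Hmgcs1: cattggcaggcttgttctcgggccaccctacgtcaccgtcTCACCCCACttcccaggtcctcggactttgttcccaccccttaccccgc
Msmo1: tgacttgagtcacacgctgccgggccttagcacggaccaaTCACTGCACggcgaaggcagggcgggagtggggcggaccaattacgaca
Hsd17b7: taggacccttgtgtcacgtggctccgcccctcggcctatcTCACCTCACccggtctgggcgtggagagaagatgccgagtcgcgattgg
Dhcr7: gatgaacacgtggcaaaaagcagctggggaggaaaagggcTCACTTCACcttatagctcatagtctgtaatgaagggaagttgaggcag

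The 150 bases ahead of the start are shown for Ebp and Insig1, the genes with the largest log2 ratios between the lineages of BELAs once 5 CPM are added to each level, with CCAAT and GC boxes of either strand in capitals. They lie at chrX:8193513-8193662 (minus strand) and chr5:28071262-28071411 (plus strand), ahead of the RefSeq start. In GENCODE M21 Insig1 begins at 28071363, within its stretch. The stretch of Insig1 holds a GC box and no CCAAT box. Neither gene has a match to the core or the relaxed SRE in its window.
Ebp: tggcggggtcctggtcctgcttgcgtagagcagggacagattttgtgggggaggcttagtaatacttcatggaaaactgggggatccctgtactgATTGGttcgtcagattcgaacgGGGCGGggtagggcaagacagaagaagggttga
Insig1: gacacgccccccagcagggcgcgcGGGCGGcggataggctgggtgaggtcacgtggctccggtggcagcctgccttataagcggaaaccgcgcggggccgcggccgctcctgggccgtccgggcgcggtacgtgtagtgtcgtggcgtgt

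In BELAs the 26 genes together stood at 4489 CPM (4471 to 4506) in VE cells and at 1910 CPM (1900 to 1920) in Epi cells, a ratio of 2.35 (2.34 to 2.37). On the scale of log2 ratios with 5 CPM added to each level, which understates the difference of low genes, 25 of the 26 were higher in VE cells. The exception was Tm7sf2 at -0.03, whose sign turned when ratios were centred on the median of all genes or cells were thinned, and Fdps was at 0.12 and turned when mitochondrial and ribosomal protein genes were left out of the totals. At least 1.5-fold higher were 18 of 26, against 23% of the 9657 tested genes, and none were 1.5-fold lower, against 20.8%. At least 2-fold higher were 15, against 13.8% of tested genes, and none were 2-fold lower, against 8.62%. The median of the 26 was 1.07, with 0.996 and 1.19 as the medians of the genes' interval bounds, and the median of all tested genes was -0.05. Tested genes had a 25 to 75% range of -0.49 to 0.52, and their share above 0 was not counted.

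**Figure D1:**
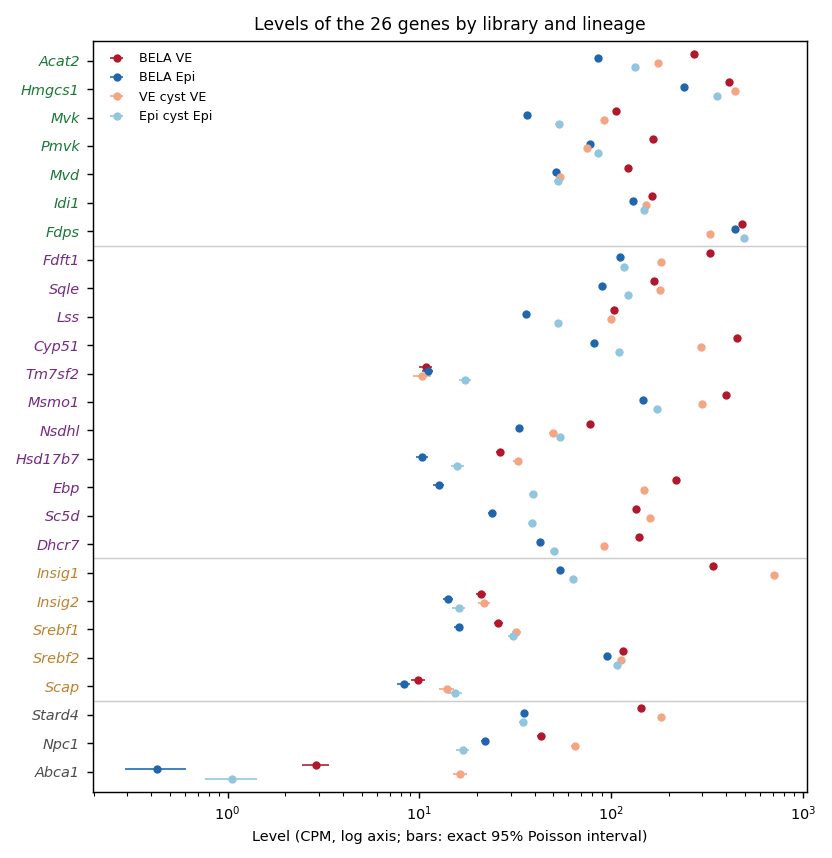
Level of each of the 26 genes in the 4 main groups, in CPM on a log axis, with exact 95% Poisson intervals and gene names coloured by role (green mevalonate, purple sterol branch, orange sterol control, grey transport). Both VE groups (red and orange points) lie to the right of both Epi groups (dark and light blue) for Cyp51, Ebp, Sc5d, Insig1 and Stard4, whereas all groups lie between 130.4 and 163 CPM for Idi1 and between 95.04 and 116 CPM for Srebf2.

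Enzymes of the mevalonate pathway summed to 1725 CPM in BELA VE and 1064 CPM in BELA Epi cells (ratio 1.62, 1.61 to 1.64). The difference was uneven along the pathway. Acat2, the cytosolic thiolase that opens it by joining acetyl-CoA units, was at 273 CPM (268 to 277) in BELA VE, 85.8 CPM (83.6 to 87.9) in BELA Epi, 176 CPM in VE cyst VE and 134 CPM in Epi cyst Epi cells. Both VE groups exceeded both Epi groups, and the ratio within BELAs was 3.18 (3.09 to 3.28). Hmgcs1, the HMG-CoA synthase, was at 414 CPM (408 to 419), 239 CPM (236 to 243), 444 CPM and 359 CPM in the same order. Its ratio within BELAs was 1.73 (1.69 to 1.76), and Epi cyst Epi cells lay nearer to the VE groups than to BELA Epi cells. The kinases Mvk and Pmvk and the decarboxylase Mvd convert mevalonate to isopentenyl diphosphate. Their ratios within BELAs were 2.89 (2.76 to 3.03), 2.12 (2.05 to 2.19) and 2.38 (2.29 to 2.48). At the end of the pathway the ratios were small. Idi1, which isomerises isopentenyl diphosphate, was at 163 CPM in BELA VE and 130.4 CPM in BELA Epi cells (1.25, 1.22 to 1.29). Fdps, the farnesyl diphosphate synthase, whose product also feeds protein prenylation, dolichol and ubiquinone, was at 481 CPM (475 to 487) and 442 CPM (438 to 447), a ratio of 1.09 (1.07 to 1.11), and its exons overlap those of Gm43738 on the same strand.

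Enzymes of the sterol branch summed to 2060 CPM (2048 to 2072) in BELA VE and 600.1 CPM (594 to 606) in BELA Epi cells, a ratio of 3.43 (3.39 to 3.47), so the lineages differed more here than in the mevalonate pathway. Of its 11 enzymes, 10 were at least 1.5-fold higher in VE cells with 5 CPM added, against 23% of tested genes. Fdft1, the squalene synthase that commits farnesyl diphosphate to sterols, was at 328 CPM (324 to 333) in BELA VE, 112 CPM (109 to 114) in BELA Epi, 183 CPM in VE cyst VE and 117 CPM in Epi cyst Epi cells. Its ratio of 2.94 (2.86 to 3.02) stood directly beside the 1.09 of Fdps, the enzyme before it. Squalene epoxidase (Sqle), which makes squalene epoxide, had a ratio of 1.88 (1.82 to 1.94). Lanosterol synthase (Lss), which closes the sterol ring system, had a ratio of 2.86 (2.73 to 2.99).

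Cyp51, the lanosterol demethylase, was at 454 CPM (449 to 459.9) in BELA VE, 81.8 CPM (79.7 to 83.9) in BELA Epi, 296 CPM (291 to 302) in VE cyst VE and 110.2 CPM (107 to 114) in Epi cyst Epi cells. The groups of the lineages did not overlap, and the ratio within BELAs was 5.55 (5.40 to 5.71). Ebp, the sterol isomerase that shifts the ring double bond, was at 219 CPM (215 to 223), 12.6 CPM (11.8 to 13.5), 149 CPM (145 to 154) and 39.1 CPM (37.2 to 41.0) in the same order. This was the highest ratio among the 26 genes within BELAs, 17.3 (16.2 to 18.5), and both Epi groups were low. BELA Epi cells kept 0.0579 of the BELA VE level of Ebp. Sc5d, the sterol desaturase that acts after Ebp, was at 135 CPM (132 to 138), 24.1 CPM (23.0 to 25.2), 159 CPM (155 to 163) and 38.9 CPM (37.1 to 40.9), with a ratio within BELAs of 5.62 (5.33 to 5.92). Among the enzymes that remove methyl groups from lanosterol, Msmo1, the methylsterol oxidase, had a ratio of 2.70 (2.64 to 2.77), Nsdhl, the dehydrogenase, 2.33 (2.22 to 2.45), and Hsd17b7, the keto-reductase, 2.57 (2.35 to 2.81). Dhcr7, the reductase that ends the Kandutsch-Russell route, had a ratio of 3.28 (3.14 to 3.42). Tm7sf2, a sterol reductase, was low throughout, at 10.8 CPM (9.93 to 11.7) in BELA VE, 11.1 CPM (10.3 to 11.9) in BELA Epi, 10.3 CPM in VE cyst VE and 17.3 CPM in Epi cyst Epi cells. The intervals overlapped in the first 3 of these groups, and the exons of Tm7sf2 overlap those of Vps51 on the same strand, where a read cannot be assigned to either gene.

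Of the 5 genes of sterol control, Insig1 alone was at least 1.5-fold higher in BELA VE cells with 5 CPM added, against 23% of tested genes. INSIG1 retains SCAP and the SREBPs in the endoplasmic reticulum, and its gene is itself an SREBP target. Insig1 was at 341 CPM (337 to 346) in BELA VE, 54.5 CPM (52.8 to 56.2) in BELA Epi, 708 CPM (699.5 to 717) in VE cyst VE and 63.3 CPM (60.8 to 65.7) in Epi cyst Epi cells. Its ratio within BELAs was 6.27 (6.05 to 6.49). The related Insig2, which is not driven by SREBP in the same way, was at 21.1, 14.1, 21.9 and 16.1 CPM in the same order, a ratio of 1.49 (1.37 to 1.63). The transcription factor genes are Srebf2 and Srebf1. Srebf2, which encodes the SREBP chiefly devoted to cholesterol, was at 116 CPM (113 to 119), 95.04 CPM (92.8 to 97.3), 113 CPM and 107 CPM, a ratio of 1.22 (1.18 to 1.26). Srebf1, whose products favour fatty acid synthesis, had a ratio of 1.61 (1.49 to 1.75), or 0.55 on the log2 scale with 5 CPM added. The escort Scap had a ratio of 1.19 (1.06 to 1.34) at levels of 9.87 and 8.28 CPM.

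The 3 transport genes summed to 189.7 CPM (186 to 193) in BELA VE and 57.6 CPM (55.9 to 59.4) in BELA Epi cells. Stard4, which carries sterol between membranes through the cytosol, was at 144 CPM (141 to 147) in BELA VE, 35.2 CPM (33.8 to 36.6) in BELA Epi, 183 CPM (178 to 187) in VE cyst VE and 34.8 CPM (33.0 to 36.6) in Epi cyst Epi cells. The Epi groups overlapped, and the ratio within BELAs was 4.09 (3.91 to 4.28). Npc1 moves cholesterol out of late endosomes, where cholesterol from internalised lipoproteins arrives. In the same order its levels were 43.1, 22.1, 64.7 and 16.9 CPM, a ratio of 1.95 (1.83 to 2.08). Abca1, the pump that exports cholesterol to apolipoproteins, was at 2.88 CPM (2.45 to 3.37), 0.430 CPM (0.292 to 0.610), 16.3 CPM (14.99 to 17.7) and 1.05 CPM (0.761 to 1.42). The ratio within BELAs was 6.70 (4.54 to 10.2), while the log2 ratio with 5 CPM added was only 0.54 because both levels were low.

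VE cells of BELAs, which face an Epi layer, were then compared with VE cells of VE cysts, which do not. The 26 genes summed to nearly the same level, 4489 CPM against 4026 CPM (4005 to 4047), a ratio of 1.12 (1.11 to 1.12), but single genes stood apart in either direction. At least 1.5-fold higher in BELA VE were 7 of 26 genes, against 6.03% of tested genes, and 2 were lower, against 12.2%. Past 2-fold were 2 higher genes, against 1.51% of tested genes, and 2 lower, against 2.67%. Abca1, 1 of the 2 lower genes at either mark, passed the minimum of 5 CPM only through VE cyst VE cells. Among members with a mean of at least 10 CPM, 1 was 1.5-fold lower. The median log2 ratio was 0.04 (-0.04 to 0.14) and that of all tested genes -0.11. All 7 higher genes were enzymes. They were Mvd (1.11 on the log2 scale with 5 CPM added), Pmvk (1.09), Fdft1 (0.83), Acat2 (0.62), Cyp51 (0.61), Nsdhl (0.59) and Dhcr7 (0.59). Pmvk was at 165 CPM (162 to 169) in BELA VE and 74.8 CPM (72.0 to 77.7) in VE cyst VE cells, the latter close to the 77.9 CPM of BELA Epi and 85.9 CPM of Epi cyst Epi cells. Mvd was likewise at 123 CPM (119.7 to 126) in BELA VE and at 54.2, 51.5 and 52.9 CPM in the other 3 groups. For this kinase and this decarboxylase BELA VE cells thus stood alone above 3 similar groups. With 20 CPM added in place of 5, 3 genes were past 1.5-fold.

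The genes lower in BELA VE than in VE cyst VE cells were Insig1, with 708 CPM in VE cysts against 341 CPM, a ratio of 0.482 (0.473 to 0.491), and Abca1, with 16.3 CPM against 2.88 CPM, a ratio of 0.177 (0.147 to 0.211). Abca1 had passed the minimum of 5 CPM only through its level in VE cyst VE cells, so its place among the lower genes is a description that the minimum helped to set. The remaining transport genes also stood lower without reaching 1.5-fold, Npc1 at -0.54 and Stard4 at -0.33 on the log2 scale. Sterol control genes summed to 514 CPM in BELA VE and 889 CPM in VE cyst VE cells (ratio 0.579, 0.569 to 0.588), a difference carried by Insig1, since the other 4 were between -0.35 and 0.04 on the log2 scale. Transport genes summed to 189.7 and 264 CPM (0.720, 0.6998 to 0.740). Mevalonate enzymes went the other way, with 1725 and 1322 CPM (1.30, 1.29 to 1.32), as did sterol branch enzymes, with 2060 and 1551 CPM (1.33, 1.31 to 1.34). Hmgcs1 at -0.10 and Sqle at -0.10 on the log2 scale were near 0, and their signs turned when ratios were centred on the median of all genes, as did that of Insig2 at -0.04. Parietal endoderm markers differed between these groups as given above. AVE markers (Cer1, Lefty1, Lhx1 and Otx2), of the anterior visceral endoderm, summed to 86.9 CPM in BELA VE and 3.02 CPM in VE cyst VE cells. Their sum was not particular to VE cells, with 164 CPM in BELA Epi and 88.7 CPM in Epi cyst Epi cells. Across BELA VE cells the sum of the 26 genes correlated at -0.0741 with the summed AVE markers and at 0.0209 with the summed parietal endoderm markers. Across VE cyst VE cells, where AVE markers were few, the values were 0.0529 and -0.157. The part of either list in these results was not tested.

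Epi cells of BELAs stood lower than Epi cells of Epi cysts for 24 of the 26 genes. The 26 genes summed to 1910 CPM against 2409 CPM (2394 to 2424), a ratio of 0.793 (0.786 to 0.799), and the median log2 ratio was -0.32 (-0.40 to -0.23) against -0.03 for all tested genes. Tested genes had a 25 to 75% range of -0.21 to 0.16, and their share below 0 was not counted. No gene was 1.5-fold higher, against 5% of tested genes, and 6 were 1.5-fold lower, against 3.49%. The lower genes were Ebp (-1.32), Srebf1 (-0.76), Nsdhl (-0.64), Scap (-0.62), Acat2 (-0.62) and Sc5d (-0.60). Ebp had 12.6 CPM in BELA Epi and 39.1 CPM in Epi cyst Epi cells, a ratio of 0.324 (0.298 to 0.351), and was the only gene past 2-fold, against 1.09% of tested genes. Srebf1 had 16.1 CPM (15.1 to 17.0) and 30.7 CPM (29.0 to 32.4). Hmgcs1, with 239 and 359 CPM, lay just under the 1.5-fold mark at -0.58. The exceptions to the direction were Npc1, at 22.1 against 16.9 CPM (ratio 1.31, 1.19 to 1.43), and Stard4, at 35.2 against 34.8 CPM (1.01, 0.947 to 1.08), which turned when the CPM of single cells were averaged. Mvd at -0.04 turned when cells were thinned or kept only at 95% purity of lineage markers. Among cells of that purity 3 genes were 1.5-fold lower in place of 6, and with 20 CPM added 1 was.

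**Figure D2:**
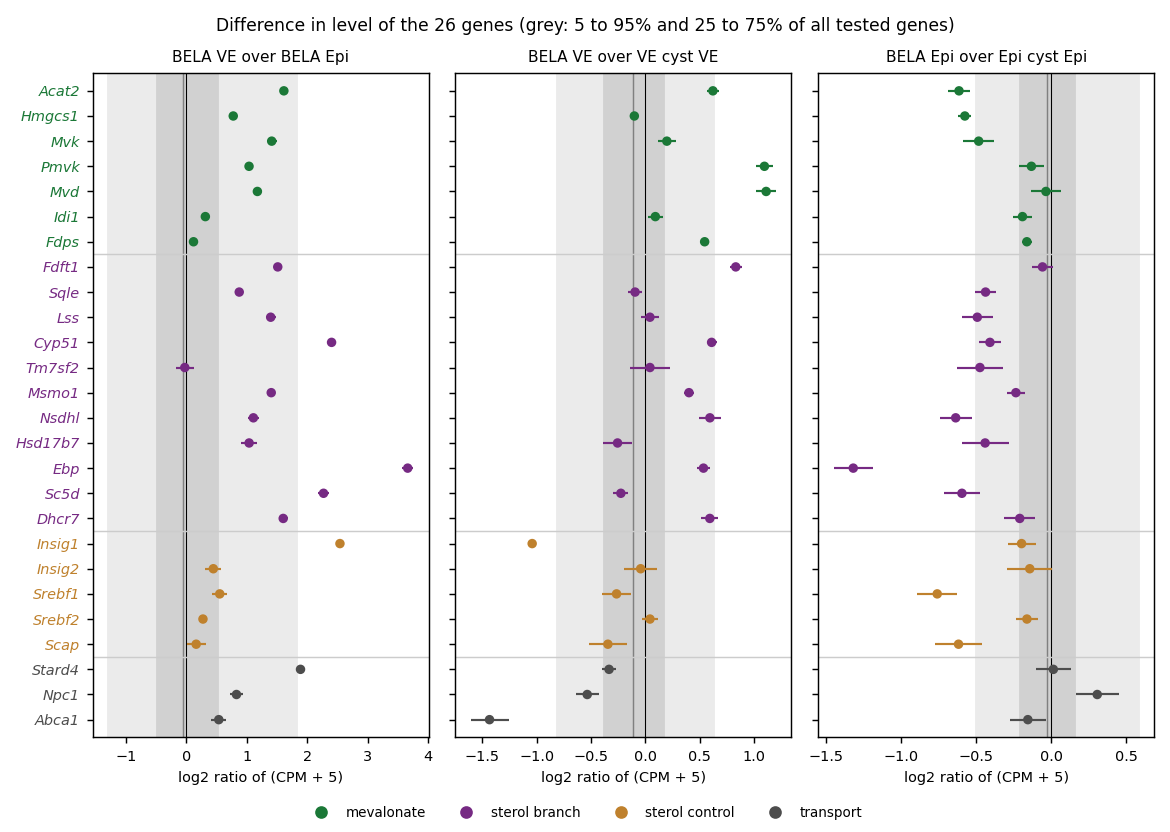
Log2 ratio of (CPM + 5) for each of the 26 genes in 3 comparisons, with counting intervals as horizontal lines, points coloured by role, and grey bands for the 25 to 75% (dark) and 5 to 95% (light) ranges of the 9657 tested genes. Nearly all points lie right of 0 in the left panel and left of 0 in the right panel, and in the middle panel enzymes reach 1.11 while Insig1 and Abca1 lie below -1.

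The 48 Epi cells of the VE cyst library gave a further look at both lineages inside a library, with few cells. VE cyst VE cells stood higher in 23 of the 26 genes, 16 of them at least 1.5-fold, against 31.5% of tested genes, and 12 at least 2-fold, against 19.9%. None were 1.5-fold lower, against 22%. The median log2 ratio was 0.79 (0.58 to 1.06), against 0.11 for all tested genes. The 25 to 75% range of the tested genes was -0.49 to 0.80, and their share above 0 was not counted. Insig1 had 708 CPM in VE cells and 89.2 CPM (80.5 to 98.6) in Epi cells, a ratio of 7.94 (7.18 to 8.81), and Ebp 149 and 17.4 CPM (8.58, 6.84 to 10.9). Stard4 had a ratio of 6.78 (5.64 to 8.22), Sc5d of 5.53 (4.62 to 6.66), Npc1 of 3.57 (2.85 to 4.54) and Cyp51 of 3.31 (2.99 to 3.67). The highest plain ratio was that of Abca1, at 16.3 and 1.16 CPM (14.03, 5.98 to 43.4), which rested on 5 UMIs in the Epi cells. Abca1 passed the minimum of 5 CPM only through VE cyst VE cells, the higher group here. Its place in these counts is therefore a description that the minimum helped to set. That minimum was a mean over the 4 main groups, which include VE cyst VE cells but not these Epi cells. Fdps was the other way round, with 328 CPM in VE and 463 CPM (442 to 483) in Epi cells, a ratio of 0.710 (0.677 to 0.745). Ebp, Insig1, Cyp51, Sc5d and Stard4, the genes with the highest log2 ratios within BELAs, were all at 1.67 or more here.

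Covariation was measured within each group, across cells thinned to 40000 UMIs so that depth was equal, as Pearson's r of log2(UMIs + 1) for genes with a mean of at least 1 UMI per thinned cell. Thinning left out 28 BELA VE, 67 BELA Epi, 104 VE cyst VE and 64 Epi cyst Epi cells. These correlations are across cells of 1 library, which share their preparation, and carry no p. The median r over pairs was 0.341 in BELA VE (210 pairs of 21 genes, 514 cells), 0.227 in BELA Epi (136 pairs of 17 genes, 801 cells), 0.232 in VE cyst VE (231 pairs of 22 genes, 473 cells) and 0.143 in Epi cyst Epi cells (190 pairs of 20 genes, 592 cells). Over all gene pairs the median was between 0.00469 and 0.00715. Only 0.219%, 0.444%, 0.380% and 2.26% of all pairs reached the median of the member pairs. Of the member pairs, 190 of 210, 136 of 136, 223 of 231 and 176 of 190 were above 0. The share of all gene pairs above 0 was not counted, and their medians, given above, were also above 0. Genes that pass the minimum in VE but not in Epi cells, Ebp and Sc5d in BELAs among them, make the sets unequal. Counting noise also lowers r where counts are low, and most enzymes had fewer UMIs per thinned cell in the Epi groups. With a minimum of 3 UMIs the median r was 0.397 in BELA VE, 0.305 in BELA Epi, 0.279 in VE cyst VE and 0.227 in Epi cyst Epi cells. The values of r therefore do not compare the strength of covariation between lineages.

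The strongest pairs lay within and between the mevalonate pathway and the sterol branch. Hmgcs1 and Msmo1 led by the median over groups, with r of 0.666 in BELA VE, 0.559 in BELA Epi, 0.635 in VE cyst VE and 0.503 in Epi cyst Epi cells. Next by the median over groups came Fdps with Msmo1 (0.554), Hmgcs1 with Fdps (0.551), Hmgcs1 with Sqle (0.548) and Cyp51 with Msmo1 (0.547). Enzymes correlated within each branch and also between them. In BELA VE cells the median r was 0.472 within the mevalonate pathway, 0.442 within the sterol branch and 0.459 between them. In Epi cyst Epi cells, under the limit of low counts given above, it was 0.252, 0.181 and 0.174.

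**Figure D3:**
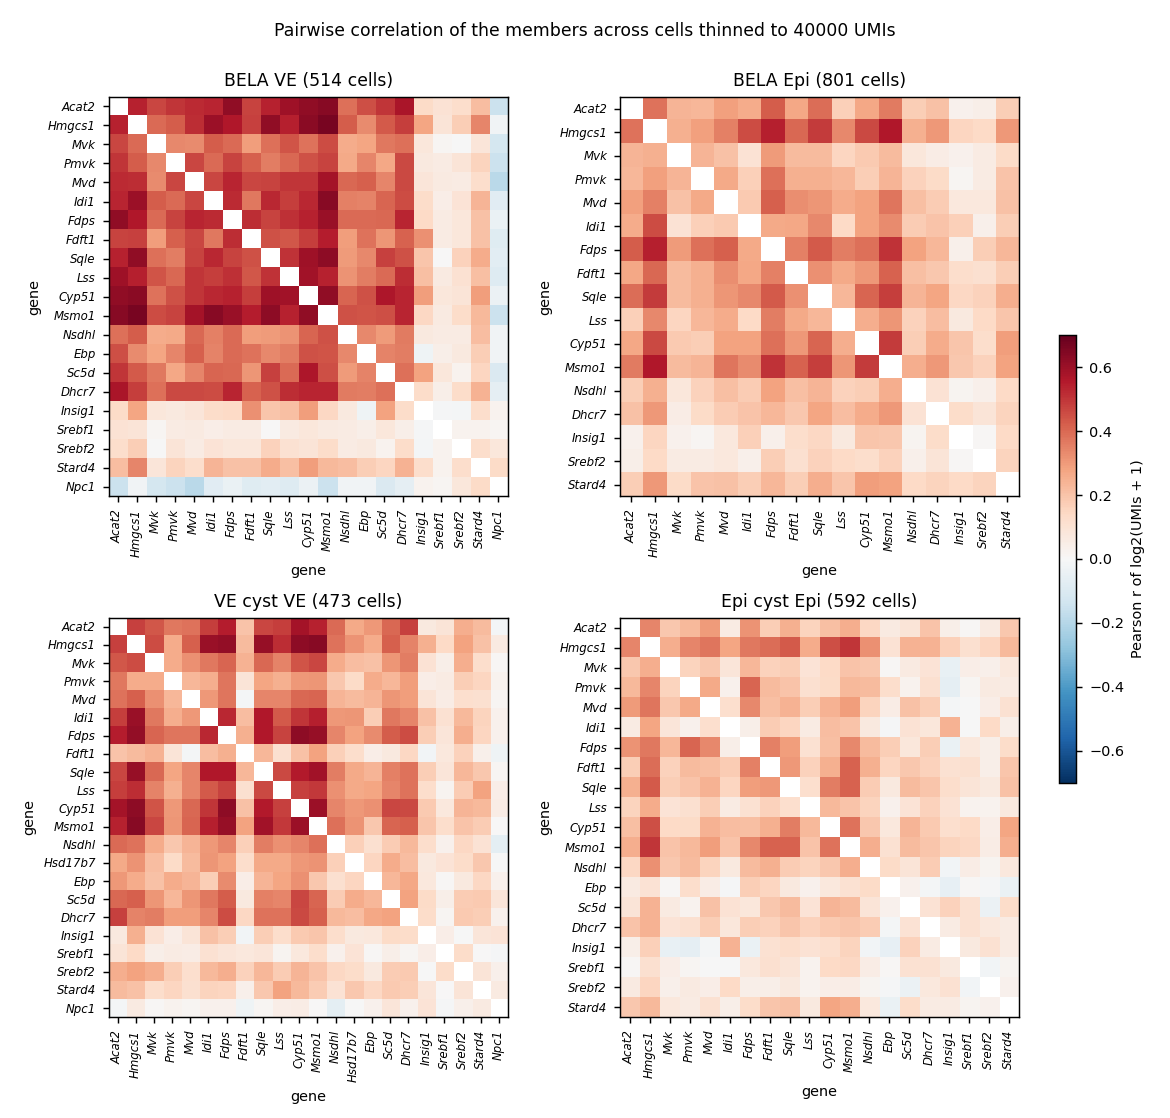
Pearson's r of log2(UMIs + 1) for each pair of genes across thinned cells, 1 panel for each main group, on a colour scale from -0.7 (blue) to 0.7 (red), with genes in the order of the pathway. A red block of enzymes from Acat2 to Dhcr7 fills most of the BELA VE and VE cyst VE panels and is paler in the Epi panels, and the rows of Insig1, Srebf1, Srebf2 and Npc1 are near white.

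Each gene was also correlated with the summed UMIs of the other members. Among genes that passed the minimum, 18 of 21 in BELA VE, 17 of 17 in BELA Epi, 20 of 22 in VE cyst VE and 20 of 20 in Epi cyst Epi cells lay at or above the 95th percentile of all genes. In the order BELA VE, BELA Epi, VE cyst VE and Epi cyst Epi, Msmo1 was at 0.777, 0.666, 0.706 and 0.585, and Hmgcs1 at 0.755, 0.696, 0.750 and 0.684. Every enzyme that passed the minimum in BELA VE cells was at 0.482 or above there. Fdft1 was uneven, with 0.621 in BELA VE, 0.497 in BELA Epi and 0.495 in Epi cyst Epi but 0.237 in VE cyst VE cells. The control genes followed the enzymes loosely. Insig1, whose level differed most between VE groups among the control genes, was at 0.254, 0.174, 0.225 and 0.145, Srebf2 at 0.136, 0.194, 0.295 and 0.123, and Srebf1 at 0.0864 in BELA VE and 0.128 in VE cyst VE cells. Insig1 and Srebf2 hardly correlated with each other, with a median r of 0.00187 over the groups. Transport genes split. Stard4 was at 0.331, 0.381, 0.261 and 0.267. Npc1 was at -0.0844 in BELA VE and 0.0699 in VE cyst VE cells, and its lowest pair in BELA VE cells was with Mvd, at -0.188.

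**Figure D4:**
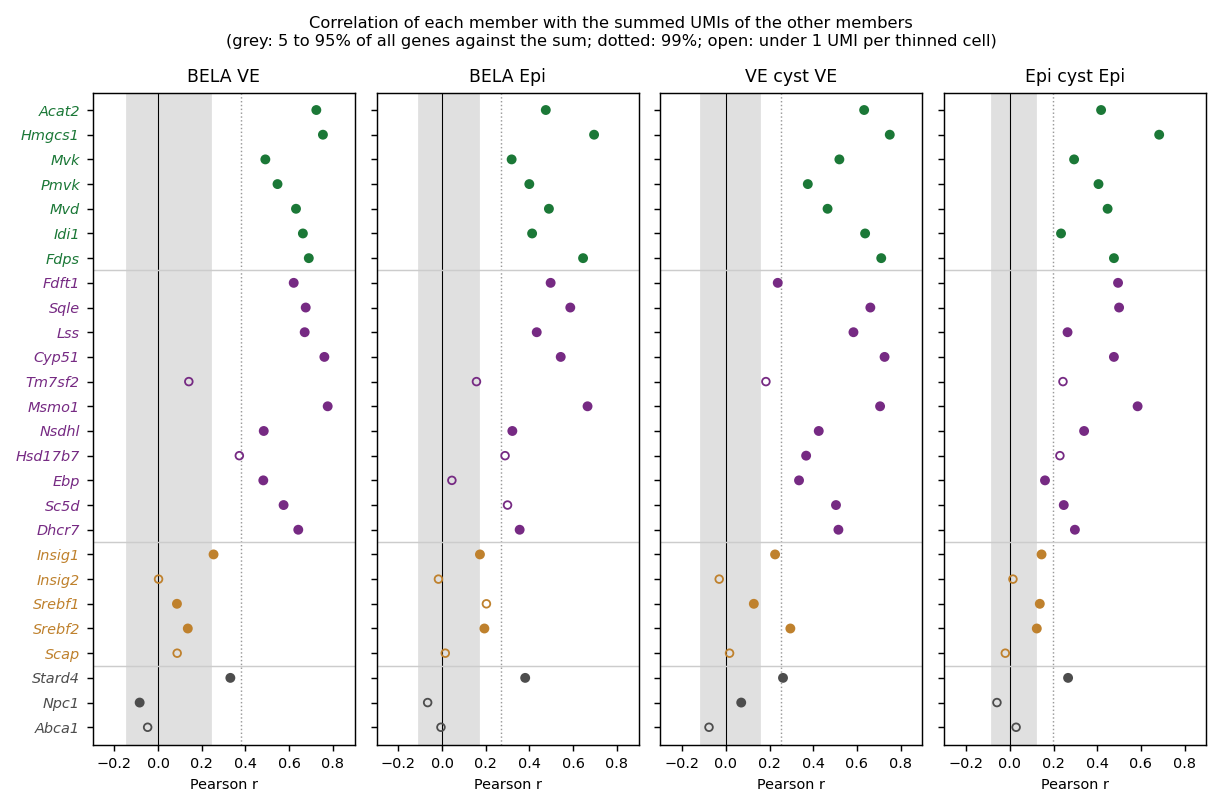
Pearson's r of each gene with the summed UMIs of the other members across thinned cells in the 4 main groups. The grey band is the 5 to 95% range of all genes against the sum, the dotted line its 99% point, and open points are genes under 1 UMI per thinned cell. Enzymes lie right of the dotted line in nearly all cases, while Srebf1, Npc1, Insig2, Scap and Abca1 lie near or within the band in BELA VE cells.

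Cells differed widely in their total for the pathway. A thinned cell held a mean of 180.1 UMIs of the 26 genes in BELA VE, with 72 at the 5th and 287 at the 95th percentile. The same values were 76.2 (32 to 138) in BELA Epi, 158 (78 to 263) in VE cyst VE and 95.9 (50 to 154) in Epi cyst Epi cells. In the same order of groups the variance of the sum was 5.94, 4.46, 5.19 and 3.67 times the sum of the single genes' variances, which is what the sum would have if the genes varied independently. The ratio of variance to mean for a single gene was 6.99 for Insig1 in BELA VE and 6.76 in VE cyst VE cells, and 1.61 and 1.79 in BELA Epi and Epi cyst Epi cells. This ratio rises with the level, and the mean Insig1 UMIs per thinned cell were 14.5, 28.5, 2.20 and 2.48 in BELA VE, VE cyst VE, BELA Epi and Epi cyst Epi cells, so the values do not compare the spread of the lineages. For Hmgcs1 it was 6.81 in BELA VE, 5.98 in BELA Epi, 6.84 in VE cyst VE and 5.10 in Epi cyst Epi cells, and the median of all genes was between 1.198 and 1.39.

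**Figure D5:**
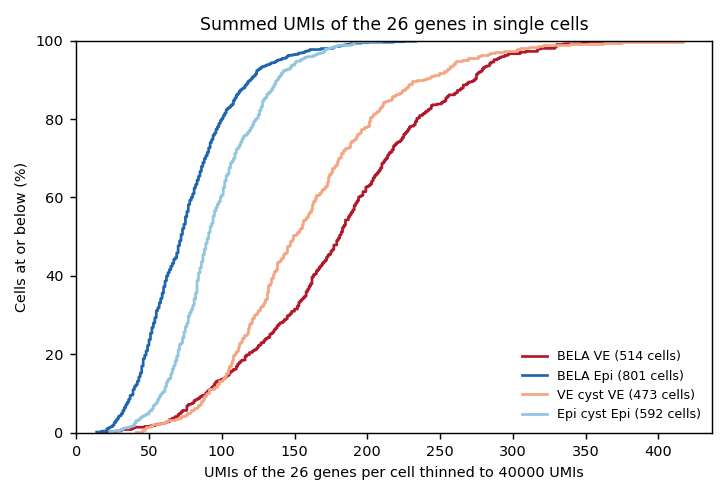
Share of cells (%) at or below a given sum of UMIs of the 26 genes per cell thinned to 40000 UMIs, for the 4 main groups. The curves of BELA VE and VE cyst VE cells lie to the right of those of the Epi groups, and the BELA Epi curve, with a median of 72, is left of the Epi cyst Epi curve, with a median of 91.

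Other measures of the cell moved with the sum of the 26 genes. The summed fatty acid synthesis genes, a neighbouring pathway under SREBP control, correlated with it at 0.549 in BELA VE, 0.647 in BELA Epi, 0.620 in VE cyst VE and 0.502 in Epi cyst Epi cells. The share of ribosomal protein UMIs went the other way, in the same order at -0.419, -0.379, -0.325 and -0.312. Genes of protein folding and stress in the endoplasmic reticulum were at 0.367, 0.211, 0.229 and 0.280. Depth before thinning was at 0.0927, 0.104, 0.233 and 0.0313, G2/M genes of the cell cycle at 0.0907, 0.0462, 0.114 and -0.0427, and glycolysis and hypoxia genes between -0.0973 and 0.124. The mitochondrial share was at -0.261 in VE cyst VE and between -0.0554 and 0.0619 in the other groups. In BELA VE cells the sum followed the VE markers at 0.453 and ran against the Epi markers at -0.244, whereas in VE cyst VE cells these were 0.124 and -0.0812. After a linear fit on the G2/M sum and the mitochondrial and ribosomal protein shares, the median r of the member pairs was 0.272, 0.201, 0.205 and 0.121. Among cells with at least 95% of their lineage-marker UMIs in their own lineage it was 0.307, 0.202, 0.236 and 0.141. The part of these measures in the levels was not tested.

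Of the 3486 other genes with at least 1 UMI per thinned cell in every group, those most like the 26 genes by the median over groups of r with their sum were enzymes of fatty acid synthesis and desaturation. Fasn, the fatty acid synthase, had a median r of 0.441 and was between 0.295 and 0.529. Scd1 and Scd2, stearoyl-CoA desaturases, had 0.437 and 0.417, and the elongase Elovl6 had 0.409. The median over all these genes was 0.0273.

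Neighbouring lists differed between the lineages of BELAs to unequal degrees. Of all tested genes 23% were at least 1.5-fold higher and 20.8% lower in VE cells, with a median log2 ratio of -0.05. For fatty acid synthesis 7 of 12 genes passed this mark upwards and none downwards, with a median of 0.74. Me1, the malic enzyme that supplies NADPH, had 423 CPM in BELA VE and 38.1 CPM in BELA Epi cells, Scd1 259 and 62.6 CPM, and Scd2 381 and 159 CPM. For sterol transport and esterification, with 13 of 14 genes tested, 9 of all 14 were higher and none lower, with a median of 0.92. Among the higher were the lysosomal Lamp1 (1479 and 236 CPM), the sterol carrier Gramd1b (42.0 and 4.02 CPM), the lysosomal sterol-binding Npc2 (773 and 222 CPM) and the oxysterol-binding Osbp (28.2 and 9.37 CPM). Isoprenoid branches for prenylation, dolichol and ubiquinone had 1 of 12 higher, none lower and a median of 0.06. The genes that process or degrade SREBP and its partners had 5 of 12 higher and 1 lower (median 0.43), with Sec24d and Erlin2 past 2-fold. Against VE cysts, 5 of these 12 were 1.5-fold lower in BELA VE and none higher, against 12.2% and 6.03% of tested genes (median -0.46, against -0.11). Sec24d, a coat protein of vesicles that leave the endoplasmic reticulum, had 22.0 CPM in BELA VE and 55.1 CPM in VE cyst VE cells.

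Of the 10 LXR and efflux genes, 8 reached the minimum of the tested genes. Over all 10, 2 were higher and 2 lower in BELA VE cells, shares near the 23% and 20.8% of all tested genes. Abcg1, a cholesterol exporter, had 1.23 CPM in BELA VE and 13.4 CPM in BELA Epi cells, the reverse of Abca1, while Lpcat3 had 146 and 39.1 CPM and Mylip 24.7 and 8.15 CPM. Ncoa2 had 14.9 CPM in BELA VE and 34.8 CPM in VE cyst VE cells. Of 8 oxysterol and bile acid genes 1 was tested, and Cyp27a1 had 10.0 CPM in BELA VE and 2.16 CPM in BELA Epi cells. Between Epi groups, Scd2 was past 2-fold lower in BELA Epi (159 against 357 CPM). All 12 fatty acid synthesis genes were below 0 there, with a median of -0.20, against -0.03 for all tested genes. The tested genes had a 25 to 75% range of -0.21 to 0.16 in that comparison, and their share below 0 was not counted.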

How the data were processed

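The authors aligned reads to mm10 and counted UMIs with Cell Ranger 4.0.0, and the deposited matrices hold raw UMI counts of 32285 genes per barcode. The members and gene lists were chosen with earlier results of these data known. Cells were filtered and assigned to lineages as stated in the report, and 5 cells with equal marker sums counted as Epi. Scrublet (scanpy 1.11.5) called doublets in each library (33 in BELAs, 11 in Epi cysts, 1 in VE cysts), which were kept. The kept cells held 126625916, 40962566 and 39793263 UMIs. Levels are UMIs over all UMIs of a group, with no division by transcript length, since 3′ counting takes 1 tag per molecule. Calls are log2 ratios of (CPM + 5) of at least 1.5-fold among genes with a mean of at least 5 CPM over the main groups. Thinning drew UMIs without replacement. Levels, thinning and correlations were tested on simulated data. All 26 members were named. Of other lists, genes at least 2-fold apart in a comparison were named, at most 4 a list, and of all other genes the 5 most alike by correlation, of which the first is not reported here. The VE and Epi markers had median log2 ratios of 5.71 and -2.73 between the BELA lineages, which their use in the assignment fixes. Of the remaining lists between BELA lineages, G2/M had a median of -0.30, endoplasmic reticulum folding 0.77, glycolysis and hypoxia 0.05, parietal endoderm 5.40 and AVE -0.77. Neural, trophoblast, fibroblast and blood and endothelium markers had 1, 1, 0 and 0 tested genes. The Fdps and Tm7sf2 exons overlap those of another gene on the same strand in GENCODE M21, and Acat2 has a close copy, Acat3, at 0.0978 to 0.479 CPM. Promoter windows came from RefSeq (GRCm38.p6). Python 3.11.15, numpy 2.4.6 and scipy 1.17.1 were used.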

Additional observations from a re-analysis of the deposited data

Results flagged for a closer look

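Acat2 and Nsdhl were at least 1.5-fold apart in both comparisons of BELAs with cysts, in opposite directions, and are listed for that reason. The opposite signs are not particular to them. Mvd, Pmvk, Fdft1, Cyp51 and Dhcr7, also past 1.5-fold higher in BELA VE than in VE cyst VE cells, were between -0.41 and -0.04 for BELA Epi over Epi cyst Epi cells. Acat2 had a log2 ratio with 5 CPM added of 0.62 for BELA VE over VE cyst VE cells and -0.62 for BELA Epi over Epi cyst Epi cells. Nsdhl had 0.59 and -0.64. Each comparison rests on 1 library a side, and the difference was not tested.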

How the results depend on the processing

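Of the recomputed results, 104 stayed within their bounds, 14 moved and none changed direction. The bounds were the counting interval for a median log2 ratio and 1.5 times the value for a count. For a median correlation they were the 95% interval of a single r over that many cells. That interval takes cells as independent, which cells of 1 library are not, so it serves as a label of size only. With 1 CPM added, the median log2 ratio was 1.26 for BELA VE over BELA Epi and -0.44 for BELA Epi over Epi cyst Epi, and with 20 CPM added 0.90 and -0.23. With 20 CPM added, 3 members in place of 7 were 1.5-fold higher in BELA VE than in VE cyst VE, and 1 in place of 6 was lower in BELA Epi than in Epi cyst Epi. Among members with a mean of at least 10 CPM, which leaves out Abca1, 1 was lower in BELA VE than in VE cyst VE, and the median for the Epi groups was -0.41. Centred on all tested genes, the median for BELA VE over VE cyst VE was 0.15. Among cells at least 95% pure in markers, 3 members were lower in BELA Epi than in Epi cyst Epi. The median pair correlation was 0.427 in BELA VE and 0.328 in BELA Epi without thinning, and 0.305 in BELA Epi and 0.227 in Epi cyst Epi for members with at least 3 UMIs. Leaving mitochondrial and ribosomal protein genes out of the totals moved the median of all tested genes from -0.05 to -0.15 for BELA VE over BELA Epi, and the members' median there was 1.02. Of the members past 1.5-fold, none changed sign under any alternative. They dropped under 1.5-fold in 10 of 54 recomputed values for the Epi groups, 4 of 81 for the VE groups and 0 of 162 within BELAs. No paired analysis was possible because each kind of aggregate has 1 library and no result comes from a test. The libraries differ in kind of aggregate and in preparation at once, which cannot be told apart.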
